A study of Mus musculus with 16 samples.

Results

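The mitosis genes were a list of 39 genes that carry a cell from the end of DNA replication through chromosome segregation to cytokinesis. A gene was measured where the array had a probe set whose annotation gave that gene's symbol alone, and of several such probe sets the one with the highest mean over the 16 arrays was used. By this rule 35 of the 39 were measured, among 8251 genes with a single symbol in all. Ccnb1, Bub1b, Cdc25b and Hmmr had no such probe set.

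The series profiled CD4+CD8+ (double-positive) thymocytes, the stage at which a newly made T cell receptor (TCR) is tested against self, after culture of fetal thymus lobes in a dish. The BDC2.5 transgenes encode the receptor of a CD4 clone that attacks pancreatic islets. NOD is a strain with spontaneous autoimmune diabetes, and B6g7 is C57BL/6 with the NOD-type MHC. There were 6 groups: on the NOD background, BDC2.5 cells given peptide for 16 h (3 arrays), BDC2.5 cells without peptide (3) and wild-type cells (2), and on the B6g7 background the same 3 kinds with 3, 3 and 2 arrays. Peptide identity, dose, the age of the lobes and any pooling are not stated in the labels, nor is the peptide state of wild-type cells. Both strains share the MHC haplotype, so a strain comparison sets the other genes of the backgrounds against each other. Nothing in the labels says that the arrays of a group came from separate cultures, so p-values measure the spread between these arrays, which may be technical.

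Entry into mitosis is driven by the kinase Cdk1 bound to a cyclin, with Plk1 and the Aurora kinases acting beside it. The spindle checkpoint holds chromatids together until all kinetochores are attached, and the anaphase-promoting complex then marks cyclin B and securin for destruction. Most of these genes are transcribed in a wave late in the cell cycle, so their RNA in a population follows how many cells are dividing. In the thymus, the double-positive stage begins in large dividing blasts and ends in small cells that no longer divide. In a bulk sample, fewer dividing cells and less RNA per dividing cell cannot be told apart.

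Array medians of the deposited intensities lay between 54.7 and 59.1. Among markers of double-positive thymocytes, Cd8a read 1074 to 5146, Rag1 543 to 4745, Cd4 158 to 327 and Rag2 74.3 to 402 intensity units. No presence calls were used, and Pdgfra, listed as a mesenchyme marker, read 144 to 179. The last-numbered array of each group (number 3 of the 4 BDC2.5 groups and number 2 of the 2 wild-type groups), called the third-number arrays here, stood apart from the other 10 on the first principal component (57.9% of the variance), at 6.73 to 37.7 against -26.4 to 3.14. Signal near the 3 prime end of the beta-actin transcript exceeded that near its 5 prime end by 1.69 ± 0.25 (log2, SD, n = 6) on these arrays and by 2.67 ± 0.32 (n = 10) on the others. The members' counts, medians and single responses that turned on these arrays are given without them below.

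The members split on the third-number arrays. Set against the other arrays of the same group, Cks2 was higher in 6 of 6 groups by a mean of 1.11 (log2), as were Nusap1 by 1.11, Birc5 by 0.85, Cenpa by 0.83, Kif11 by 0.74 and Top2a by 0.69. In the opposite direction, Kif22 gave -0.77, Kif20a -0.75, Ccnb2 -0.47, Kif4 -0.32, Ube2c -0.30 and Cdc20 -0.27, each lower in 6 of 6 groups. These counts are 17.1% of the members each way, beside 15.2% of all genes higher and 21.3% lower, so a split of this size was not particular to mitosis genes. It widened the spread within groups for the members concerned. How far it follows RNA integrity was not tested.

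**Figure D1:**
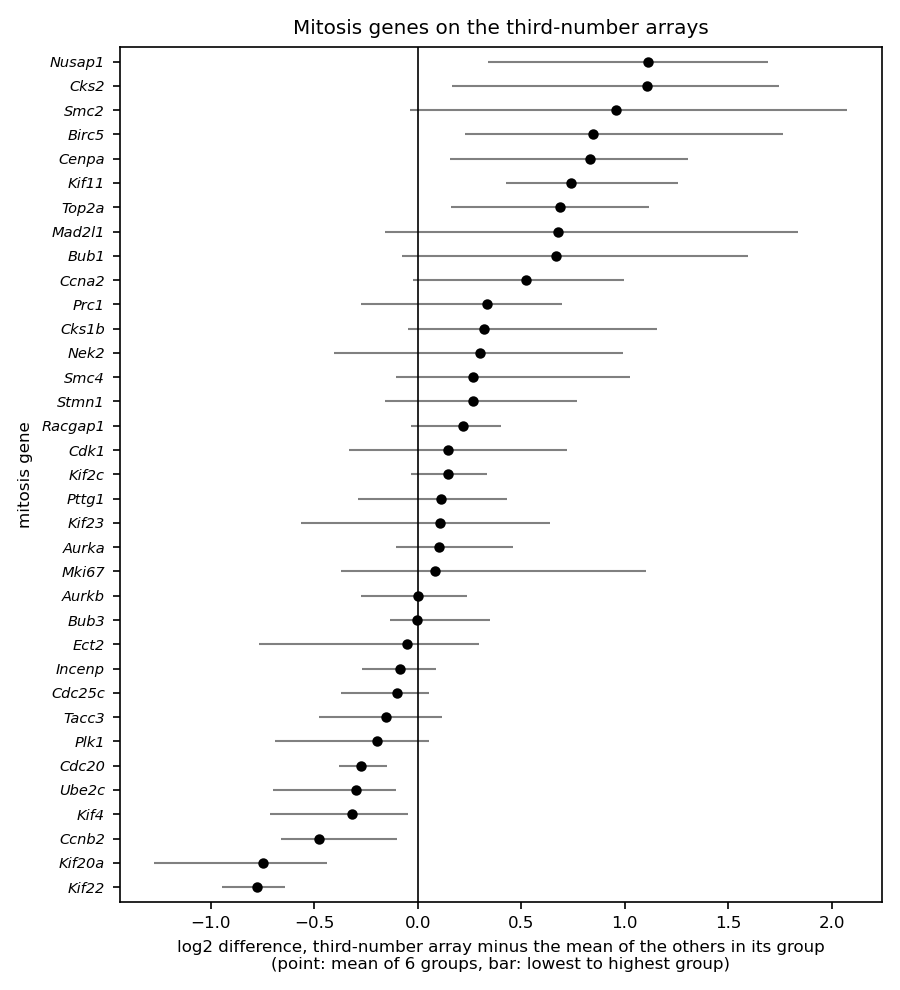
Log2 difference between the third-number array of a group and the mean of the other arrays of that group, for each of the 35 mitosis genes. Points are means of the 6 groups and bars run from the lowest to the highest group. Nusap1 and Cks2 stand at the top with 1.11, and Kif22 at the bottom with -0.77.

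Peptide was added to BDC2.5 lobes to engage the transgenic TCR, and the question put to the mitosis genes is whether their RNA differed 16 h later. Across both strains, all 35 members had a lower mean with peptide, by a median of -0.26 (log2), against 57% of all genes and a median of -0.02. No single member passed limma's test at an adjusted p under 0.05, in either strain or in their mean. The share of probe sets that passed was 0% in BDC2.5/NOD cells, 0.00805% in BDC2.5/B6g7 cells and 0.0242% for the mean of both. At an unadjusted p under 0.05 the members numbered 3 in NOD (1.67% of all probe sets), 6 in B6g7 (3.4%) and 5 in the mean (3.58%), each of them lower. With the replicate number as a block these became 5, 12 and 16, while the share of all probe sets also grew, to 4.62%, 7.06% and 7.22%, and still 0 members passed after adjustment.

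Most members were lower with peptide in each strain, and the median was further below 0 in B6g7, a difference whose test is given below. In BDC2.5/NOD cells 30 of 35 members were lower, with a median of -0.21, beside 57.6% of all genes and a median of -0.03. A single array weighed on this: without the NOD array without peptide numbered 3 the median was -0.10 with 24 members lower, and without that numbered 1 it was -0.33 with 32 lower. In BDC2.5/B6g7 cells 30 of 35 were lower too, with a median of -0.36, beside 51% of all genes and a median of -0.003. All 3 peptide arrays lay below all 3 arrays without peptide for 3 members in NOD (3.25% of all genes) and 11 in B6g7 (3.05%). The reverse, all peptide arrays above, held for 0 members in either strain, against 2.27% of genes in NOD and 3.83% in B6g7. Without the third-number arrays, with 2 arrays in each group, 14 members lay apart and lower in NOD (14.2% of genes) and 13 in B6g7 (10.8%). The 3 and 11 above are necessarily among them, since leaving out arrays cannot create an overlap. Apart and higher were then 2 in NOD (11.8%) and 0 in B6g7 (10.4%).

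**Figure D2:**
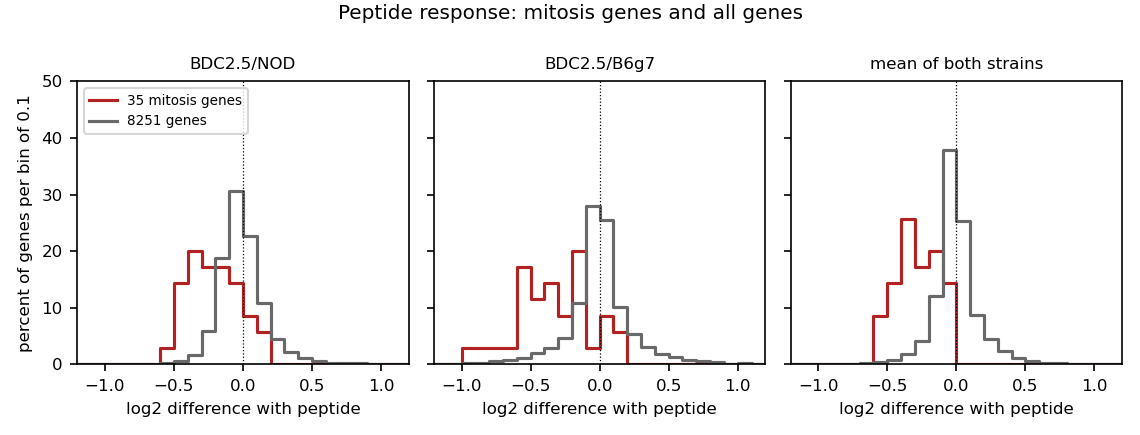
Percent of genes in each bin of 0.1 on the log2 scale of the peptide difference (16 h of peptide minus without peptide), for the 35 mitosis genes and all 8251 genes, in BDC2.5/NOD, in BDC2.5/B6g7 and for the mean of both. The mitosis genes lie to the left of all genes in each panel, with medians of -0.21, -0.36 and -0.26.

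Pairs of arrays with the same number showed how much single arrays weighed. The members' median difference was -0.08, -0.22 and -0.29 in the NOD pairs numbered 1, 2 and 3, with 19, 30 and 29 members lower, beside 58.9%, 49.2% and 54.7% of all genes. It was -0.26, -0.19 and -0.65 in the B6g7 pairs, with 28, 23 and 33 members lower, beside 52.5%, 46.1% and 53.3% of all genes. The B6g7 pair numbered 3 thus had the lowest median, and in the NOD pair numbered 1 neither the members' median nor their count stood apart from that of all genes (median -0.06). Without the third-number arrays the median was -0.16 in both strains, with 25 members lower in NOD and 27 in B6g7, and that of the mean response was -0.20 with 29 lower. Lower in 6 of 6 pairs were 7 members, Aurka, Birc5, Ccna2, Kif2c, Racgap1, Stmn1 and Top2a, or 20% of the list against 3.24% of all genes.

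Single members depended on the third-number arrays to unequal degrees. Without them the mean response over both strains was -0.46 for Aurka, -0.46 for Birc5, -0.44 for Mad2l1, -0.44 for Top2a and -0.29 for Cks2, so these kept most of their size. It came to -0.18 for Ccna2, against -0.43 with all arrays, to -0.20 for Kif11, against -0.40, to -0.20 for Nek2, against -0.44, and to -0.19 for Cenpa, against -0.33. For Nusap1 almost nothing was left, at -0.005, against -0.34 with all arrays. Aurkb gave -0.17, Mki67 -0.11, Ube2c -0.08 and Cks1b -0.08 without these arrays, each closer to 0 by over 1.5 times, whereas Pttg1 gave -0.23 and Kif4 -0.13, farther from 0. Above 0 were then 6 members, Bub1 (0.27), Smc2 (0.16), Kif23 (0.05), Smc4 (0.04), Cdc25c (0.03) and Ect2 (0.007).

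**Figure D3:**
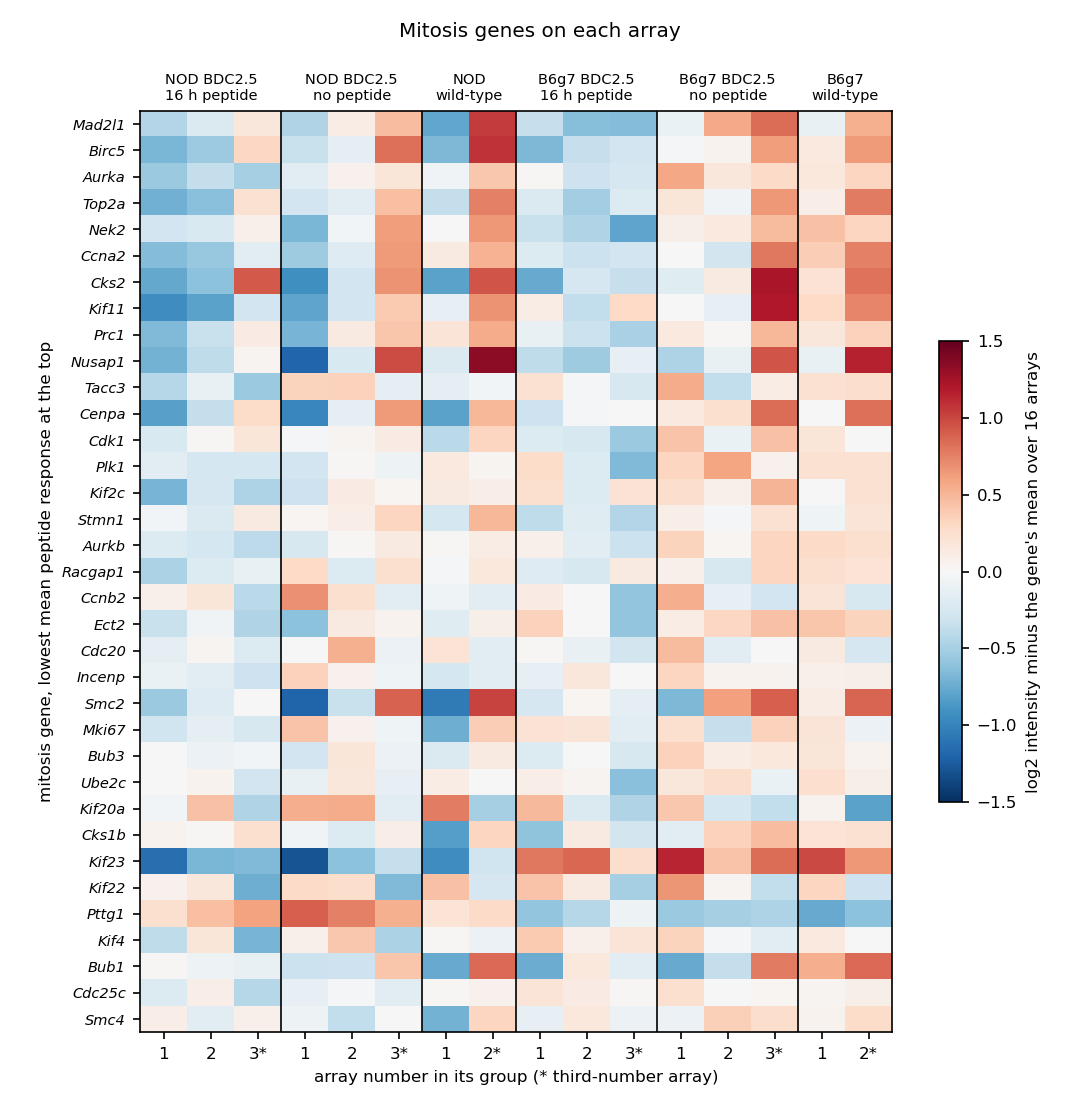
Log2 intensity of each mitosis gene on each of the 16 arrays, minus that gene's mean over all arrays, with genes ordered by their mean peptide response. Blue is below and red above the gene's mean, asterisks mark the third-number arrays, and the 2 peptide groups are bluer in the upper rows than the groups without peptide. Kif23 is blue on all NOD arrays and red on all B6g7 arrays, and Pttg1 the other way round.

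Mitotic kinases and the chromosomal passenger complex, which corrects faulty attachments of chromosomes to the spindle, were lower with peptide in 7 of 7 members in each strain, with a median of -0.31 in NOD and -0.52 in B6g7. Without the third-number arrays Nek2 was above 0 in NOD, at 0.11, and Tacc3 in B6g7, at 0.007. Aurka, the kinase that matures centrosomes and activates Plk1, measured 139, 159.8 and 145 in BDC2.5/NOD cells with peptide, against 181, 213 and 231 without it. In B6g7 it measured 206, 165 and 172 with peptide, against 306, 229 and 249 without it. By brightest probe sets it was the only member whose peptide arrays all lay below the arrays without peptide in both strains, which 0.327% of all genes did. Of 12 dimmer probe sets of 10 members, only a probe set of Plk1 and another of Bub1 did so too. The share of all probe sets that did so was not counted. The difference of Aurka was -0.49 ± 0.18 in NOD and -0.53 ± 0.18 in B6g7 (log2, SE of the fit), and the mean of both was -0.51 ± 0.13, or 0.703 times the level without peptide. That was also the smallest adjusted p among the members' brightest probe sets, 0.510, and 0.223 with the replicate block, neither passing. Wild-type cells had 197 and 271 (NOD), against 228 and 256 (B6g7).

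Aurkb, the kinase of the passenger complex, stood at 245, 234 and 214 in BDC2.5/NOD cells with peptide, against 238, 285 and 308 without it. In B6g7 the values were 296, 250.3 and 225 with peptide, against 355, 286 and 353 without it. A single array made the groups overlap in each strain, and the difference was -0.26 ± 0.16 in NOD and -0.37 ± 0.16 in B6g7. Wild-type cells had 284 and 303 (NOD), against 344 and 333 (B6g7). Birc5 (survivin), which brings the complex to the centromere, gave 108, 119 and 216 in BDC2.5/NOD cells with peptide, against 139, 159 and 309 without it. In B6g7 it gave 109, 137 and 143 with peptide, against 171, 180.2 and 269 without it. The third-number array was the highest of each of these 4 groups, and within each number the peptide array was the lower one in both strains. The difference was -0.43 ± 0.42 in NOD and -0.66 ± 0.42 in B6g7, with errors nearly as large as the difference in NOD. Wild-type cells showed the same departure, with 109 and 369 (NOD), against 193 and 270.4 (B6g7). Incenp, the scaffold of the complex, was at 208, 200.0 and 179.9 in BDC2.5/NOD cells with peptide, against 284, 234 and 214 without it. Those groups did not overlap (-0.31 ± 0.16), whereas in B6g7 they did, at 205, 251 and 224 with peptide, against 279, 232 and 232 without it (-0.13 ± 0.16). Its wild-type arrays read 186 and 198 (NOD), against 236 and 237 (B6g7).

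Plk1, which acts at entry into mitosis, at centrosomes and in cytokinesis, measured 635, 592 and 591 in BDC2.5/NOD cells with peptide, against 581, 719 and 672 without it. In B6g7 it measured 858, 617 and 451 with peptide, against 889, 1072 and 744 without it. The B6g7 peptide array numbered 1 lay within the range of the group without peptide, and the difference was -0.11 ± 0.22 in NOD and -0.52 ± 0.22 in B6g7. Wild-type cells had 788 and 733 (NOD), against 833 and 835 (B6g7). Each of its 3 probe sets was lower with peptide over both strains, by -0.32, -0.34 and -0.49. The last had an adjusted p of 0.451 (limma), smaller than that of Aurka and not passing. In NOD the dimmer probe sets gave -0.20 ± 0.15 and -0.29 ± 0.16. On the first of these, all peptide arrays lay below all arrays without peptide, in both strains. Nek2, a kinase that separates centrosomes, stood at 197, 205 and 252 in BDC2.5/NOD cells with peptide, against 149, 233 and 370.3 without it. In B6g7 it stood at 191, 176 and 138 with peptide, against 255, 265 and 334 without it. The B6g7 groups did not overlap (-0.76 ± 0.29) and the NOD groups did (-0.11 ± 0.29). Its wild-type arrays read 239 and 376 (NOD), against 325 and 300.5 (B6g7). Tacc3, an Aurora A substrate that stabilises spindle microtubules, had the lowest difference of all members in NOD, -0.55 ± 0.23, from 172, 214 and 158 in BDC2.5/NOD cells with peptide, against 292, 295 and 211 without it. In B6g7 the arrays were spread across each other, at 272, 227 and 197 with peptide, against 340.5, 180.1 and 252 without it (-0.11 ± 0.23). The wild-type values of Tacc3 were 209 and 226 (NOD), against 273 and 279 (B6g7).

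**Figure D4:**
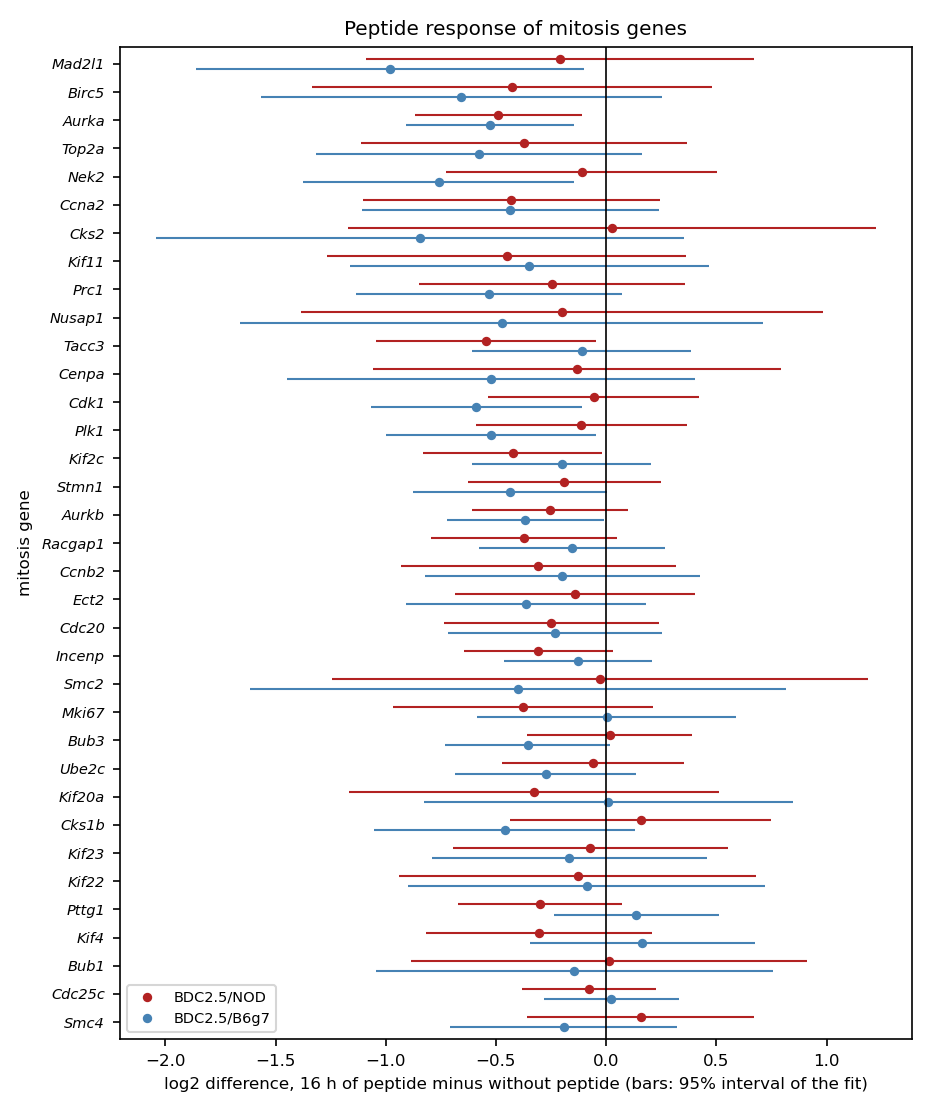
Log2 difference between 16 h of peptide and no peptide for each mitosis gene, in BDC2.5/NOD (red) and BDC2.5/B6g7 (blue), with the 95% interval of the fit, ordered by the mean of both. Most points lie left of 0, and Aurka is the 1 member whose intervals lie below 0 in both strains. None passed after adjustment over all probe sets.

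Cdk1 and its partners had a median of -0.07 in NOD and -0.45 in B6g7. Cdk1, the kinase that starts mitosis, measured 693, 817 and 918 in BDC2.5/NOD cells with peptide, against 797, 829 and 883 without it. In B6g7 it measured 704, 684 and 551 with peptide, against 1091, 755 and 1095 without it. The B6g7 groups did not overlap (-0.59 ± 0.22), and the NOD arrays lay among each other (-0.06 ± 0.22). Wild-type cells had 612 and 1009 (NOD), against 920.1 and 811 (B6g7). Ccnb2 (cyclin B2) was at 1401, 1499 and 999 in BDC2.5/NOD cells with peptide, against 2138, 1566 and 1188 without it. On the B6g7 background the values were 1448, 1328 and 877 with peptide, against 1929, 1214 and 1089 without it. Here the array numbered 3 was the lowest of each group, and the groups overlapped in both strains (-0.31 ± 0.29 and -0.20 ± 0.29). Wild-type cells had 1264 and 1177 (NOD), against 1520.1 and 1125 (B6g7).

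Ccna2 (cyclin A2), needed in S phase and at entry into mitosis, gave 393, 419 and 550.2 in BDC2.5/NOD cells with peptide, against 427, 542 and 959 without it. In B6g7 it gave 538, 496 and 509 with peptide, against 614, 510.5 and 1071 without it. The array without peptide numbered 3 was far above the others in each strain, and the peptide array was the lower one in 6 of 6 pairs, by -0.43 ± 0.31 and -0.44 ± 0.31. Wild-type cells had 677 and 885 (NOD), against 798 and 1046 (B6g7). Cks2, a small protein that binds the Cdk, ran at 402, 446 and 1296 in BDC2.5/NOD cells with peptide, against 361, 559.6 and 1087 without it. In B6g7 it ran at 405, 572 and 539.5 with peptide, against 605, 751 and 1599 without it. The B6g7 groups did not overlap (-0.85 ± 0.56), while in NOD the array numbered 3 was the highest with and without peptide (0.03 ± 0.56). Wild-type cells had 392 and 1313 (NOD), against 797 and 1202 (B6g7). Its relative Cks1b had the highest difference of any member in NOD, 0.16 ± 0.28, with 271, 266 and 309 in BDC2.5/NOD cells with peptide, against 252, 227 and 279.8 without it. In B6g7 it was lower in each pair (-0.46 ± 0.28), at 173, 288 and 216 with peptide, against 233, 334 and 359 without it. Wild-type cells had 147 and 328 (NOD), against 302 and 307 (B6g7). Cdc25c, a phosphatase that activates Cdk1, was almost level in both strains, at 96.2, 118 and 82.4 in BDC2.5/NOD cells with peptide, against 102, 109 and 99.3 without it. The B6g7 arrays read 126, 121 and 112 with peptide, against 131, 110.4 and 113 without it, so that the mean response was -0.03 ± 0.10. The wild-type values of Cdc25c were 112 and 116 (NOD), against 114 and 117 (B6g7).

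Spindle checkpoint genes and the anaphase-promoting complex had medians of -0.13 in NOD and -0.25 in B6g7. Mad2l1 (Mad2), the checkpoint protein that restrains Cdc20, had the lowest difference of any member in B6g7, -0.98 ± 0.41 or 0.506 times the level without peptide, from 592, 484 and 480.0 with peptide, against 702, 1120.3 and 1346 without it. Those groups did not overlap. In NOD they did, at 555, 651 and 846 in BDC2.5/NOD cells with peptide, against 552, 817 and 1042 without it (-0.21 ± 0.41). Wild-type cells had 438 and 1565 (NOD), against 697 and 1092 (B6g7), and the NOD pair held both the lowest and the highest of all 16 arrays. Bub1, the kinase that builds the checkpoint at kinetochores, showed no order by peptide on its brightest probe set. It was at 111, 104 and 102 in BDC2.5/NOD cells with peptide, against 88.1, 88.6 and 147 without it. B6g7 cells had 65.5, 122 and 97.8 with peptide, against 65.3, 85.9 and 188 without it, and the mean response of -0.07 ± 0.30 turned to 0.27 without the third-number arrays. A dimmer probe set of Bub1 gave a mean response of -0.46 ± 0.14, not passing, and its groups did not overlap in either strain. It read 22.2 to 25.0 in NOD with peptide, against 25.9 to 32.7 without it. In B6g7 it read 31.1 to 50.2 with peptide, against 51.4 to 70.9 without it. Another probe set of Bub1, dimmer still with a mean of 16.3 units, gave a mean response of -0.03 ± 0.07. On the brightest probe set, wild-type cells had 65.3 and 198 (NOD), against 159.9 and 198 (B6g7).

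Bub3, the partner of Bub1, had B6g7 groups that did not overlap, with 689, 795 and 674 with peptide, against 1011, 862 and 887 without it (-0.36 ± 0.17). In NOD they were level, with 792, 747 and 770.5 in BDC2.5/NOD cells with peptide, against 653, 899.6 and 750.0 without it (0.02 ± 0.17). Cdc20, which activates the anaphase-promoting complex, stood at 1104, 1253 and 1062 in BDC2.5/NOD cells with peptide, against 1212, 1769 and 1148 without it. In B6g7 it stood at 1241, 1128 and 1006 with peptide, against 1697, 1093 and 1226 without it. The groups overlapped in both strains, and the differences were much alike, -0.25 ± 0.23 and -0.23 ± 0.23. Wild-type cells had 1409 and 1086 (NOD), against 1341 and 1029 (B6g7). Ube2c, the ubiquitin-conjugating enzyme of that complex, was at 103, 108 and 84.5 in BDC2.5/NOD cells with peptide, against 96.2, 117 and 94.9 without it. In B6g7 it was at 111, 107 and 66.8 with peptide, against 117, 124 and 96.6 without it, with overlap in both strains (-0.06 ± 0.19 and -0.28 ± 0.19). Wild-type cells had 112 and 104 (NOD), against 124 and 109.6 (B6g7).

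Kinesins and spindle proteins were lower in 9 of 9 members in NOD (median -0.24) and in 7 of 9 in B6g7 (median -0.20). Without the third-number arrays Nusap1 (0.17) and Kif23 (0.05) were above 0 in NOD. In B6g7 those above 0 were then Kif4 (0.07), Kif20a (0.06) and Kif23 (0.04). Kif11 (Eg5), which pushes the spindle poles apart, measured 98.4, 108 and 154 in BDC2.5/NOD cells with peptide, against 109, 155 and 248 without it. In B6g7 it measured 203, 146 and 231 with peptide, against 189.7, 173 and 433 without it. Overlap was wide in both strains, with differences of -0.45 ± 0.38 and -0.35 ± 0.38, and the array numbered 3 was the highest of each group. Wild-type cells had 172 and 299 (NOD), against 231 and 313 (B6g7). Kif2c (MCAK), which shortens microtubules at kinetochores, was lower in 6 of 6 pairs, at 111, 151 and 131 in BDC2.5/NOD cells with peptide, against 146, 197 and 185 without it. On the B6g7 background the values were 214, 157 and 209.6 with peptide, against 217, 191 and 257 without it. A single array made the NOD groups overlap (-0.42 ± 0.19), and the B6g7 difference was -0.20 ± 0.19. Its wild-type arrays read 198 and 194 (NOD), against 179 and 212 (B6g7). Kif4 (KIF4A), a motor on chromosome arms and the central spindle, was the member with the highest difference in B6g7, 0.16 ± 0.24, and was higher in 3 of 3 pairs there, at 104, 84.1 and 90.8 with peptide, against 101, 78.5 and 71.5 without it. In NOD it was lower in 3 of 3 pairs (-0.30 ± 0.24), at 61.0, 90.0 and 49.0 in BDC2.5/NOD cells with peptide, against 83.8, 105 and 57.4 without it. The wild-type values of Kif4 were 80.7 and 75.2 (NOD), against 88.1 and 80.3 (B6g7).

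Stmn1 (stathmin), which destabilises microtubules, was lower in 6 of 6 pairs, at 3135, 2776 and 3543 in BDC2.5/NOD cells with peptide, against 3291, 3441 and 4032 without it. In B6g7, where the groups did not overlap (-0.44 ± 0.20), it was at 2459, 2832 and 2367 with peptide, against 3440.1, 3147 and 3770.1 without it. The NOD difference was -0.19 ± 0.20, and wild-type cells had 2675 and 4551 (NOD), against 3069 and 3672 (B6g7). Nusap1, which bundles spindle microtubules, followed the third-number arrays more than peptide, with 382, 478 and 644 in BDC2.5/NOD cells with peptide, against 273, 532 and 1229.7 without it. In B6g7 it had 478, 431 and 574 with peptide, against 453, 579.8 and 1202 without it, and the differences were -0.20 ± 0.55 and -0.47 ± 0.55. Wild-type cells had 535 and 1581 (NOD), against 579 and 1392 (B6g7). Prc1, which bundles the microtubules of the central spindle, had B6g7 groups that did not overlap, at 404, 351 and 311 with peptide, against 485, 442 and 620.1 without it (-0.53 ± 0.28). In NOD it was at 276, 348 and 475 in BDC2.5/NOD cells with peptide, against 270.1, 482 and 584 without it (-0.24 ± 0.28). The wild-type values of Prc1 were 500.2 and 644 (NOD), against 493 and 558 (B6g7). Kif20a (MKLP2), which carries the passenger complex to the midzone, was lower in 3 of 3 NOD pairs, at 628, 879 and 474 in BDC2.5/NOD cells with peptide, against 944, 946 and 579 without it. In B6g7 it was level, at 902, 554 and 472 with peptide, against 856, 538 and 501 without it, and the differences were -0.33 ± 0.39 and 0.01 ± 0.39. In wild-type cells Kif20a gave 1102 and 456 (NOD), against 668 and 371 (B6g7), with the third-number array lower in each strain. For Kif22 the differences were -0.13 ± 0.38 in NOD and -0.09 ± 0.38 in B6g7, and for the cytokinesis regulators Ect2 and Racgap1 the mean responses were -0.25 ± 0.18 and -0.26 ± 0.14.

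Among genes of chromosome structure, Top2a (topoisomerase II alpha), which untangles sister chromatids, was lower in 6 of 6 pairs, at 455, 485 and 877 in BDC2.5/NOD cells with peptide, against 612, 667 and 1026 without it. The B6g7 arrays read 643, 522 and 648 with peptide, against 851, 719.9 and 1176 without it, with no overlap there. Its differences were -0.37 ± 0.34 in NOD and -0.58 ± 0.34 in B6g7, and wild-type cells had 583 and 1263 (NOD), against 801 and 1282 (B6g7). Mki67, the source of the proliferation marker Ki-67, separated the NOD groups, at 672, 743 and 697 in BDC2.5/NOD cells with peptide, against 1114, 866 and 789 without it (-0.38 ± 0.27). In B6g7 it did not, at 961, 946 and 738 with peptide, against 978, 652 and 1048 without it (0.002 ± 0.27). Wild-type cells had 498 and 1069 (NOD), against 942 and 776 (B6g7). Cenpa, the centromeric histone, had B6g7 groups that did not overlap, at 278, 342 and 344 with peptide, against 383, 410.0 and 618 without it (-0.52 ± 0.43). In NOD it was at 197, 269.6 and 419.6 in BDC2.5/NOD cells with peptide, against 175, 313 and 537 without it (-0.13 ± 0.43). In wild-type cells Cenpa gave 198 and 488 (NOD), against 344 and 613 (B6g7), with the third-number array higher in each strain. Smc4, a condensin subunit, was higher in 3 of 3 NOD pairs (0.16 ± 0.24), at 3449.9, 2866 and 3397 in BDC2.5/NOD cells with peptide, against 3049, 2482 and 3206 without it. In B6g7 it was lower in 3 of 3 pairs (-0.19 ± 0.24), at 2949.7, 3595 and 3027 with peptide, against 3021, 4106 and 3861 without it. In wild-type cells Smc4 gave 1967 and 4008 (NOD), against 3338 and 3902 (B6g7). Smc2, its partner in condensin, ranged from 138 to 203 in NOD with peptide, against 88.1 to 373 without it, and from 170.3 to 207 in B6g7 with peptide, against 127 to 376 without it. Its peptide arrays lay inside the range of the arrays without peptide in both strains, and its mean response was -0.21 ± 0.40.

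Whether the response differed between the strains was tested by the interaction term, the NOD response minus the B6g7 response. It was positive for 22 members and negative for 13, with a median of 0.16, and 0 members and 0% of probe sets passed. No member reached an unadjusted p under 0.05, where 1.18% of probe sets did. Cks2 gave 0.87 ± 0.79, Mad2l1 0.77 ± 0.58, Nek2 0.65 ± 0.40 and Cks1b 0.62 ± 0.39, and at the other end Kif4 gave -0.47 ± 0.34, Pttg1 -0.44 ± 0.25 and Tacc3 -0.43 ± 0.33. For Aurka the term was 0.04 ± 0.25, with a 95% interval from -0.50 to 0.58, so a difference as large as its response was within the interval. Without the third-number arrays the median was 0.07.

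Related lists gave values of the same sign. Among 38 other mitosis genes on the array, 36 had a lower mean with peptide over both strains, with a median of -0.21 and 0 passing. Anln (anillin), which scaffolds the cleavage furrow, gave -0.46 ± 0.17, the condensin subunit Ncaph -0.35 ± 0.15 and Ccnf (cyclin F) -0.31 ± 0.13. Of 30 S-phase genes, 27 were lower (median -0.23, 0 passing), among them the replication factors Cdc45 (-0.41 ± 0.15) and Mcm7 (-0.32 ± 0.16) and the ligase Lig1 (-0.38 ± 0.13). Of 17 cell cycle transcription factors and inhibitors, 13 were lower (median -0.12, 0 passing), and Cdkn2d (p19Ink4d) and Cdkn2c (p18Ink4c), which inhibit the Cdks of G1, gave -0.46 ± 0.17 and -0.33 ± 0.14. By strain, Cdkn2d averaged 443 with peptide against 809 without it in B6g7, and 608 against 623 in NOD. In the same order Cdkn1a averaged 183 against 171 and 348 against 345, and Cdkn1b 23.2 against 23.8 and 24.4 against 24.0. Cdkn1c averaged 157 against 194 and 243 against 255. Values below 0 were thus found among some inhibitors of the cycle as well as among its drivers, and none of them passed.

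Values of cell type markers under the same contrast follow, and none passed in the lists given with a median. Of 11 double-positive markers, 9 were lower with peptide, with a median of -0.40 and 0 passing. Rag2, of the recombinase, gave -0.74 ± 0.26, Dntt, the terminal transferase, -0.64 ± 0.19 and Cd8a -0.54 ± 0.25. The summed level of those 11 was 10920 to 11978 in NOD with peptide, against 11592 to 16435 without, and 8469 to 12568 in B6g7 with peptide, against 12352 to 14467 without. The sum of 10 myeloid and dendritic markers was 453 to 494 in NOD with peptide, against 456 to 536 without it, and 962 to 1403 in B6g7 with peptide, against 605 to 951 without it. Apoe made up much of it, at 505 to 971 in B6g7 with peptide, against 266 to 597 without it. The other 9 summed to 428 to 458 in B6g7 with peptide, against 339 to 404.5 without it, and 7 of the 10 were higher there (median 0.19, 0 passing). Markers of double-negative and immature cycling thymocytes summed to 148 to 196 in NOD with peptide, against 130 to 172 without it. In B6g7 they summed to 164 to 181 with peptide, against 141 to 168 without it. NK and innate lymphocyte markers summed to 374 to 507 in NOD with peptide, against 308 to 377 without it. In B6g7 that sum was 344 to 639 with peptide, against 395 to 587 without it. Gzma made up most of that sum, at 142 to 558 over the 16 arrays. Klrd1, Ncr1 and Gzmb reached at most 23.4, 14.1 and 52.2. These sums were not tested. For B cells, thymic epithelium, mesenchyme and endothelium taken as 1 list, and erythroid cells the median of the mean response was -0.04, 0.02, -0.04 and 0.04. None of these lists had a marker listed at 0. Their part in the members' differences was not tested.

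Promoters of the members were set beside the response, since genes of this wave often carry a cell cycle homology region (TTTGAA or TTTAAA, bound by the DREAM and MuvB complexes) and CCAAT boxes (bound by NF-Y). RefSeq windows of GRCm38.p6, from 250 bases before to 50 bases after the annotated start, were used for 28 of the 35 members, with 31 windows. Counted on both strands, TTTGAA was in 74.2% of the members' windows against 17.9% of all 32851 windows. CCAAT was in 80.6% against 37.4%, with 2 or more copies in 58.1% against 11.7%. A CCAAT together with TTTGAA or TTTAAA was in 71% against 10.7%. The letters TTTCCCGC and TTTGGCGC, forms of the E2F site, were in 0 member windows, against 1.07% and 0.514% of all windows. Other forms of that site were not searched, so these counts do not show that the members' windows lack it. TTTAAA reads the same on both strands, and each motif was counted on its own, whether or not it overlapped another. Within the list the motif did not order the response: the median mean response was -0.25 for the 21 members with TTTGAA or TTTAAA and -0.34 for the 7 without.

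Of the windows, 6 are shown with matches in capitals. The forms TTTGAA or, read from the reverse strand, TTCAAA mark the cell cycle homology region, as does TTTAAA, whereas the CCAAT box reads ATTGG from the reverse strand. Aurka (chr2:172370521-172370820, minus strand) is shown as the member with no overlap of the groups in both strains by brightest probe sets, and Cdk1 (chr10:69352863-69353162, minus strand) and Ccnb2 (chr9:70421505-70421804, minus strand) as the kinase of mitosis and its cyclin. Mad2l1 (chr6:66534971-66535270, plus strand) had the lowest response and none of the motifs. Kif23 (chr9:61946750-61947049, minus strand) and Pttg1 (chr11:43425932-43426231, minus strand) are the members that differed between strains. Neighbouring CCAAT boxes began 33 bases apart in Ccnb2, and 32 bases apart in Aurka and in the nearer pair of Cdk1.
Aurka: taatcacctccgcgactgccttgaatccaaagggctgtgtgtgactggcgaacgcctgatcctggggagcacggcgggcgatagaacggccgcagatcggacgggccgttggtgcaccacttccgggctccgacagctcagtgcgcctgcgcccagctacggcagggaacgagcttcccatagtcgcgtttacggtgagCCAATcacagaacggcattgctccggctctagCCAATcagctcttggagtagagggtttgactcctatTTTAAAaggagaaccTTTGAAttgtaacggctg
Cdk1: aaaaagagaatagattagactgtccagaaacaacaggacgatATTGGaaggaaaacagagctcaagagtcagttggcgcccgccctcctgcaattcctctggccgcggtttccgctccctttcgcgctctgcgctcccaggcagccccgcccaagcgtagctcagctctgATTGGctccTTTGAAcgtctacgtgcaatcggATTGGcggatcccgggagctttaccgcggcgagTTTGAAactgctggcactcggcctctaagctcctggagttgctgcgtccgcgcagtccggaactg
Ccnb2: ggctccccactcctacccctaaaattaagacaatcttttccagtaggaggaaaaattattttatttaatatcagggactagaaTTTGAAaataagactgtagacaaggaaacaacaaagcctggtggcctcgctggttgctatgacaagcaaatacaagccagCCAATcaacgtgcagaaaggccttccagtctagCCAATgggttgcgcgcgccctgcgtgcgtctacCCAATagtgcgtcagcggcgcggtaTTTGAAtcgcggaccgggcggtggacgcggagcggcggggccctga
Mad2l1: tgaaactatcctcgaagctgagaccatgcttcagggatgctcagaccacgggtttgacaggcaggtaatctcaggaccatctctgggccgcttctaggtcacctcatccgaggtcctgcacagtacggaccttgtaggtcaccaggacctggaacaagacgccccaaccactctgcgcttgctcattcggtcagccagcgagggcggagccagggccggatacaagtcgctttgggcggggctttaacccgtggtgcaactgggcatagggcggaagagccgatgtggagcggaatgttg
Kif23: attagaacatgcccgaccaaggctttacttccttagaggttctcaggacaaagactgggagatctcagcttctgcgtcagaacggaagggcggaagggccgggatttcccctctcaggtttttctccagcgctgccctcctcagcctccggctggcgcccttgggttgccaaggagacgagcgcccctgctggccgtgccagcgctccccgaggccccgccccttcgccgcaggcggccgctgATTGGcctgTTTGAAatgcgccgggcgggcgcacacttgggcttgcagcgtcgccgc
Pttg1: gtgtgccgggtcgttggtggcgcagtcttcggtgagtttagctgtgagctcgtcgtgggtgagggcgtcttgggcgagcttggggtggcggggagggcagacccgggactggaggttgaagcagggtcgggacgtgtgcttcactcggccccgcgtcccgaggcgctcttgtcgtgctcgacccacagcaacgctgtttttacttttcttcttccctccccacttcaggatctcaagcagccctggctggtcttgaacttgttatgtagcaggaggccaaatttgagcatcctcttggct
The Kif23 window had 1 TTTGAA and 1 CCAAT, both next to the start, and the Pttg1 window had 0 matches, as had that of Mad2l1. A match describes letters and no factor's binding was measured.

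Between strains, 2 members stood out from the rest in opposite directions. Kif23 (MKLP1), the motor of centralspindlin that organises the midzone for cytokinesis, was at 203, 278 and 282 in BDC2.5/NOD cells with peptide, against 773, 808 and 534 in BDC2.5/B6g7 cells with peptide. Without peptide it was at 181, 290.5 and 351 in NOD, against 985, 599 and 799.7 in B6g7. Wild-type cells had 233 and 363 (NOD), against 888 and 697 (B6g7). Every NOD array was thus below every B6g7 array in each state. The difference, NOD minus B6g7, was -1.46 ± 0.29 at 16 h of peptide (limma, adjusted p = 0.0425) and -1.56 ± 0.29 without it (adjusted p = 0.0442), both passing, and -1.43 ± 0.36 in wild-type cells (adjusted p = 0.343), which did not pass. The first of these calls was lost without any 1 of the 6 arrays compared and the second without 5 of the 6, with adjusted p up to 0.251 and 0.188.

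Pttg1 (securin), which holds separase inactive until anaphase, was at 372, 429.6 and 478 in BDC2.5/NOD cells with peptide, against 208, 234 and 298 in BDC2.5/B6g7 cells with peptide. Without peptide it was at 588, 529.8 and 457 in NOD, against 215, 223 and 228 in B6g7. Wild-type cells had 364 and 384 (NOD), against 187 and 206 (B6g7). Every NOD array was above every B6g7 array here. The difference was 0.80 ± 0.17 at 16 h (adjusted p = 0.0727, and 0.0322 with the replicate block), 1.24 ± 0.17 without peptide (adjusted p = 0.00644) and 0.93 ± 0.21 in wild-type cells (adjusted p = 0.214), so that 1 of the 3 passed without the block. A second, dim probe set of Pttg1, with a mean of 16.9 units, gave 0.14 to 0.28 in these comparisons, none passing. Kif23 had a single probe set.

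The 3 states were then averaged in 1 contrast, chosen after these values were seen. Kif23 gave -1.49 ± 0.18 (adjusted p = 0.000513), or 0.357 times the B6g7 level, with 181 to 363 on the 8 NOD arrays, against 534 to 985 on the 8 B6g7 arrays. Pttg1 gave 0.99 ± 0.11 (adjusted p = 0.000189), or 1.98 times, with 364 to 588 on the NOD arrays, against 187 to 298 on the B6g7 arrays. Both calls held when any 1 array was left out, at adjusted p up to 0.00412 and 0.00173, and without the third-number arrays (-1.80 and 1.06). No overlap between the strains was seen for 0.461% of genes lower in NOD and 0.339% higher, and 1.3% of probe sets passed. No other member passed by its brightest probe set. For Bub1 the probe sets disagreed: a dimmer one gave -0.92 ± 0.12 (adjusted p = 0.000753), at 22.2 to 37.5 on the NOD arrays, against 31.1 to 70.9 on the B6g7 arrays, and the brightest gave -0.14 ± 0.26.

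**Figure D5:**
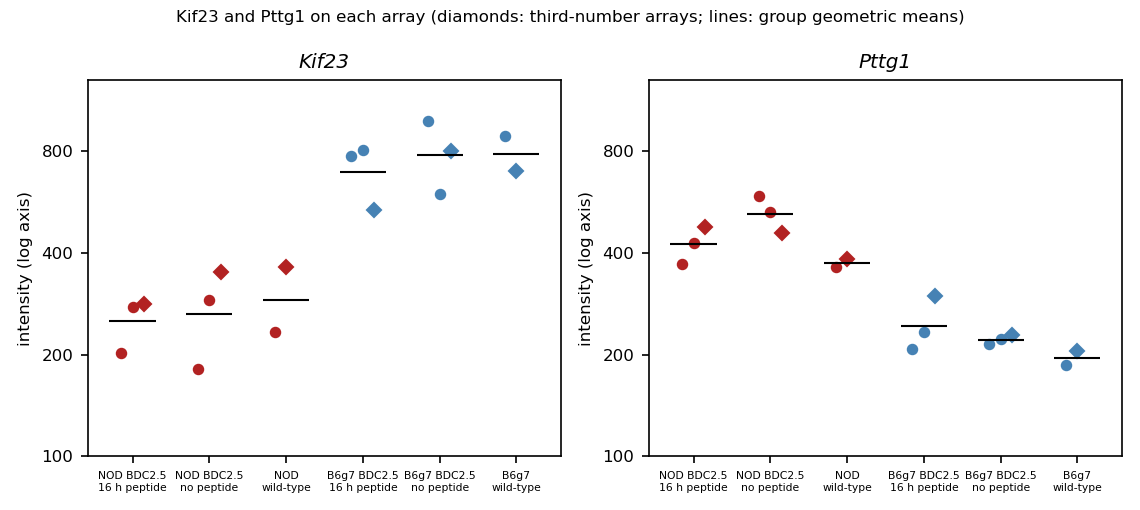
Intensity (log axis) of Kif23 and Pttg1 on each of the 16 arrays, with the NOD groups in red on the left and the B6g7 groups in blue on the right. Diamonds are the third-number arrays and lines are geometric means of the groups. The NOD arrays lie at 181 to 363 for Kif23, below all B6g7 arrays, and at 364 to 588 for Pttg1, above all B6g7 arrays.

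Of the partners of both genes, none passed. Racgap1, the other subunit of centralspindlin, gave -0.09 ± 0.12 over the 3 states, Prc1, to which the midzone motors bind, -0.05 ± 0.18, and Ect2, the exchange factor that centralspindlin recruits, -0.35 ± 0.16 (unadjusted p = 0.0437, not passing). Cdc20, through which securin is destroyed, gave 0.04 ± 0.14. Over all members 29 of 35 were lower in NOD in this average (48.9% of genes), with a median of -0.16 against 0.002 for all genes. Without the wild-type NOD array numbered 1 the median was -0.05 with 20 members lower, and without that numbered 2 it was -0.23. By state the members lower in NOD were 19 at 16 h of peptide (48.8% of genes, median -0.03, 0.491% of probe sets passing), 26 without peptide (39.8%, median -0.26, 0.266% passing) and 27 in wild-type cells (57.6%, median -0.16, 0.0886% passing). Members whose NOD and B6g7 arrays did not overlap numbered 3 lower and 2 higher at 16 h (5.67% and 6.47% of genes), 3 and 1 without peptide (2.39% and 3.01%) and 7 and 1 in wild-type cells (13.3% and 6.69%). At an unadjusted p under 0.05 the members were 4 at 16 h (5.68% of probe sets), 2 without peptide (3.45%), 2 in wild-type cells (2.09%) and 4 in the average (5.98%). Without the BDC2.5/NOD array without peptide numbered 1, the median of that state was -0.12. The wild-type value rested on single arrays: the median was 0.09 without the NOD array numbered 1 and -0.39 without that numbered 2.

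After Kif23 and Pttg1, the lowest and highest members of these comparisons did not pass. Kif11 gave -0.69 ± 0.38 at 16 h of peptide and -0.59 ± 0.38 without it, and Kif2c gave -0.56 ± 0.19 at 16 h, where the NOD arrays lay below all B6g7 arrays. Cks2 gave -0.57 ± 0.56 without peptide, and in wild-type cells Bub1 gave -0.65 ± 0.51 and Cenpa -0.57 ± 0.53. At the upper end Mad2l1 gave 0.38 ± 0.41 and Nek2 0.38 ± 0.29 at 16 h, Kif20a 0.39 ± 0.39 and Ccnb2 0.21 ± 0.29 without peptide, and Kif20a 0.51 ± 0.48 and Prc1 0.11 ± 0.34 in wild-type cells. Apart from Kif2c, each of these was less than 2 standard errors from 0, although the 16 h arrays of Nek2 did not overlap either.

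Of the other cell cycle genes, Cdkn1a (p21), an inhibitor of Cdks, was higher in NOD, at 243 to 691 on the NOD arrays, against 142 to 218 on the B6g7 arrays. It gave 1.15 ± 0.17 over the 3 states (adjusted p = 0.00232) and was the 1 gene of the other mitosis, S-phase and factor lists that passed in that contrast. In the single states it gave 0.91, 1.03 and 1.51 and did not pass (adjusted p = 0.409, 0.334 and 0.189), whereas with the replicate block it did (0.0241, 0.0147 and 0.00967). Foxm1 and Mybl2, activators of the mitotic wave, gave 0.004 ± 0.11 and -0.05 ± 0.10. Among myeloid and dendritic markers Apoe gave -2.11 ± 0.23 (adjusted p = 0.000165), at 102 to 163 on the NOD arrays, against 266 to 971 on the B6g7 arrays. The other 9 summed to 341 to 398 on the NOD arrays, against 339 to 458 on the B6g7 arrays, and the median of all 10 was -0.10, with 7 lower. Double-positive markers with wide gaps between strains were found in both directions. Group means of Cd8b1 were 495 to 709 in NOD, against 2132 to 2564 in B6g7. Those of Cd3g were 1450 to 2057 in NOD, against 693 to 1094 in B6g7. The part of these markers in the members' strain differences was not tested.

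The transgene comparison set BDC2.5 cells without peptide against wild-type cells of the same strain, and the peptide comparison shares the BDC2.5 arrays with it. In NOD 22 of 35 members were lower in BDC2.5 cells, with a median of -0.09, beside 39.1% of all genes, and 0 passed (0.0564% of probe sets). In B6g7 18 were lower, with a median of -0.01, beside 54.5% of all genes, and 0 passed (0.0805%). The NOD median turned to 0.13 without the third-number arrays. Groups that did not overlap were found for 2 members lower and 2 higher in NOD (2.36% and 5.79% of genes) and for 0 lower and 1 higher in B6g7 (6.31% and 4.17%). At the ends stood Nusap1 (-0.71 ± 0.62), Kif11 (-0.50 ± 0.42), Prc1 (-0.42 ± 0.31), Incenp (0.34 ± 0.17), Ccnb2 (0.38 ± 0.32) and Pttg1 (0.48 ± 0.19) in NOD. In B6g7 they were Bub1 (-0.80 ± 0.47), Nusap1 (-0.40 ± 0.62), Ccna2 (-0.39 ± 0.35), Pttg1 (0.18 ± 0.19), Mad2l1 (0.22 ± 0.46) and Kif20a (0.30 ± 0.44). Pttg1 was the single member at an unadjusted p under 0.05 in NOD (2% of probe sets), where B6g7 had 0 (1.49%), its BDC2.5 arrays at 457 to 588 lying above the wild-type arrays at 364 and 384.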

How the data were processed

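RNA of CD4+CD8+ thymocytes was measured on 16 short-oligonucleotide arrays. The deposited values are linear intensity values per probe set, with array medians close to each other; how the authors scaled them is not stated in the labels or the file header. Intensities were turned to log2 with no pseudocount, and 66 control probe sets were left out of 12488. Genes were named through the platform annotation, which gave 10833 probe sets 1 symbol, 396 several and 1193 none. Each probe set was fitted with limma 3.58.1 in R 4.3.3 (lmFit, eBayes with an intensity trend), with 1 mean per group over all 16 arrays, and p-values were adjusted by Benjamini-Hochberg over 12422 probe sets. A result passed at an adjusted p under 0.05. The error after ± is the fit's standard error unless called SD, and intervals are 95%. The number of arrays limits the precision.

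BDC2.5 arrays with the same number deviated together from their group means (correlations of 0.165 to 0.842, each over 0.1), and a second fit took that number as a block. This put the wild-type arrays numbered 2, which are third-number arrays, in a block with the BDC2.5 arrays numbered 2, which are not. Between those without peptide the correlations were 0.058 in B6g7 and -0.499 in NOD. The block thus mixed the 2 kinds of array, and its p-values are an alternative with that limit. Values on every array were given for a set of core members and for the lowest and highest members of each comparison. The members and lists were chosen with earlier results of these data known. Fits were tested on simulated data.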

Additional observations from a re-analysis of the deposited data

Results flagged for a closer look

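For 3 members every same-numbered pair of arrays moved one way in BDC2.5/NOD cells and the opposite way in BDC2.5/B6g7 cells. Kif4 was lower with peptide in each NOD pair and higher in each B6g7 pair, with a NOD response minus B6g7 response of -0.468 (log2). Cks1b and Smc4 were higher in each NOD pair and lower in each B6g7 pair, with differences of 0.617 and 0.349. The interaction term of the fit did not pass for any of them (limma, adjusted p = 0.9996 each). The share of all genes that did so was not counted, so whether this count of members is unusual is not known.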

How the results depend on the processing

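Alternatives were a replicate block, quantile scaling, arrays centred on their medians, a pseudocount of 32, a mean intensity of at least 50, no intensity trend, only the groups compared, the mean of a gene's probe sets, each array left out, and no third-number arrays. The contrast averaged over 3 states was chosen after seeing the data. Without the third-number arrays the members' median response in B6g7 was -0.16, the wild-type strain median -0.34 and the NOD transgene median 0.13, and Bub1's mean response was 0.27. The B6g7 transgene median was 0.00517 with arrays centred. Of the members, 1 passed between strains at 16 h of peptide, against 2 with the replicate block, 0 with arrays centred, 0 without the third-number arrays and 0 with only the groups compared. Without peptide 2 passed, against 1 with arrays centred, 1 with no intensity trend, 1 without the third-number arrays, 0 with the mean of probe sets and 0 with only the groups compared. With each array left out in turn, 0 to 1 and 1 to 2 passed in those comparisons. The same ranges of the members' median were -0.33 to -0.10 for the NOD response (24 to 32 members lower), -0.41 to -0.28 for the B6g7 response (26 to 33), -0.34 to -0.21 for the mean response (32 to 35), -0.34 to -0.12 for the strain difference without peptide (24 to 32), -0.23 to -0.05 for its average over the states (20 to 31), -0.021 to 0.32 for the strain difference of the response, -0.15 to 0.040 for the strain difference at 16 h, -0.39 to 0.086 in wild-type cells (15 to 30 members lower), -0.035 to 0.070 for the B6g7 transgene and -0.27 to 0.15 for the NOD transgene (13 to 27 lower), and -0.23 to 0.16 for Bub1's mean response. The causes were not tested. The transgene comparisons share only a number between their groups (correlations of 0.695 and 0.058 in B6g7, 0.678 and -0.499 in NOD), and there too 0 members passed with the block. Over all probe sets the block moved the number passing to 129 from 61 at 16 h, to 69 from 33 without peptide, to 32 from 11 in wild-type cells, to 271 from 161 in the average, to 7 from 3 in the mean response and to 3 from 1 in B6g7. Other alternatives without arrays left out gave as few as 22, 0, 0, 117, 3 and 0 in the same order, and 1 against 10 and 0 against 7 for the B6g7 and NOD transgene.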
